A study of Mus musculus with 48 samples.

Results

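The collagen gene family was described in whole-liver RNA-seq from 48 mice. Its members were the protein-coding genes of the joined count tables whose symbol has the form Col, a chain type, the letter a and a chain number. This gave 43 genes of 29221 in the tables. Of these, 11 encode fibrillar collagens, 9 fibril-associated collagens with interrupted triple helices (FACIT), 6 beaded-filament and 6 basement membrane network collagens. A further 4 encode transmembrane, 3 short-chain network and 2 multiplexin collagens, with 1 anchoring fibril gene (Col7a1) and 1 unclassified gene (Col28a1).

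All mice carried a floxed Pparg gene and all received a virus. After 16 weeks on diet they received AAV8-TBG-Cre, in which the hepatocyte promoter TBG drives Cre, or AAV8-TBG-null as the control. The low fat diet (LF, D12450J) was given to females for 34 weeks. The high fat diet (HF, D12492) was given to both sexes for 34 weeks, and the labels name these livers steatotic. The HFCF groups ate the HF diet for 18 weeks and then, for 16 weeks, a diet rich in fat, cholesterol and fructose (D16010101), and the labels name non-alcoholic steatohepatitis. Each of the 4 male groups (HF and HFCF, control and Cre) held 6 livers, and each of the 6 female groups (LF, HF and HFCF, control and Cre) held 4. Mice were adult, with no strain or age in weeks in the labels, and each library came from 1 animal. As TBG is active in hepatocytes, the model is of that cell type, while the RNA came from whole liver.

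Collagens are secreted or membrane proteins whose chains wind into a triple helix, and each chain has its own gene. Fibrillar types I and III make up most of the scar of a fibrotic liver, type IV forms the network of basement membranes, and type VI forms beaded filaments around cells. In the liver, stellate cells and portal fibroblasts are the main sources of fibrillar collagen, while hepatocytes make type XVIII, whose C-terminal fragment is endostatin.

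Libraries held 15338239 to 22072884 reads on genes. Levels are given as CPM (counts scaled to library size with the trimmed mean of M values, TMM). TPM, which also divides by gene length, was used only to compare genes with each other. A gene is called where edgeR's quasi-likelihood test gave a Benjamini-Hochberg adjusted p under 0.05 over all genes tested in that comparison. Pparg did not fall in the libraries labelled knockout: its changes ran from 0.26 on the log2 scale in HF males (adjusted p = 0.38, edgeR) to 0.97 in HFCF females (adjusted p = 0.0422, edgeR). The count covers the whole gene and not the floxed stretch alone, so it does not check the deletion, and these groups are named "labelled knockout" throughout. Hepatocyte markers were abundant in every group, with Alb, Ttr, Apoa1, Cyp2e1 and Serpina1c summing to a group median of at least 50604 CPM. Some libraries stood apart from their group. Control HF female replicate 1 had 151 CPM of Col1a1 against 6.14 to 22.1 in the others, and Gpnmb, a macrophage gene, at 19.5 against 0.372 to 2.57. Control HFCF male replicate 1 was low, with 91.3 CPM of Col1a1 against 226 to 244. Control LF female replicate 1 had 175 CPM of Col5a2 against 4.63 to 6.24. In HFCF females labelled knockout, replicate 1 was low, with 78.0 CPM of Col1a1 against 159 to 224. Counts of called members that moved without one of these libraries are given both ways. For such fits the share of all genes is at the adjusted threshold. Their member counts at an unadjusted p under 0.05 therefore have no matching share beside them.

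Per transcript length, Col18a1 was the most abundant collagen mRNA in every group. Its mean was 492 TPM over the 48 livers, and its range of 348 to 597 lay above the highest value of any other member, 141 TPM of Col1a1. Col18a1 (chr10:77052178-77166548) alone held 58.6% of the collagen reads in the median control HF male and 37.1% in the median control HFCF female. Col3a1 followed at 50.3 TPM, Col14a1 at 48.4, Col1a1 at 45.9 and Col4a1 at 38.9. Their order changed with the group. In control LF females Col14a1 stood at 28.7 ± 5.28 TPM (SD, n = 4), with Col4a1 at 17.3 ± 6.06, Col3a1 at 14.9 ± 7.26 and Col1a1 at 11.3 ± 6.51, and the latter 3 lay within their spread of each other. In control HFCF females Col3a1 at 108 ± 27.3 and Col1a1 at 105 ± 33.4 TPM (SD, n = 4) did not differ beyond their spread, above Col4a1 at 75.1 ± 15.6 and Col14a1 at 69.9 ± 8.35. Col5a3, a fibrillar chain of type V, stood at 37.7 ± 5.02 TPM (SD, n = 6) in control HF males and 12.4 ± 4.98 (SD, n = 4) in control HF females, with 9.31 ± 4.53 in control LF females. Sex and any difference in how the male and female animals were handled cannot be told apart. At the low end, 9 members had fewer than 100 reads in all 48 libraries together, and 4 of those had fewer than 10.

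**Figure D1:**
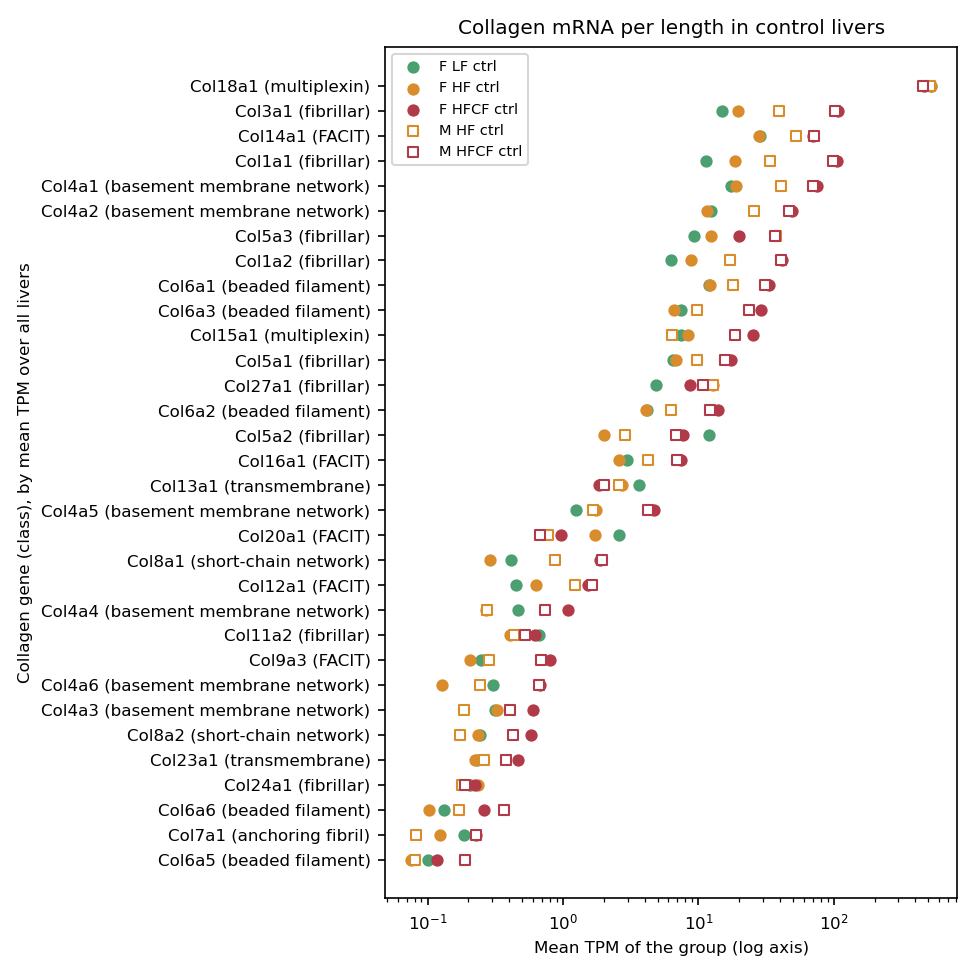
Mean TPM (log axis) of the 32 collagen genes at or above 0.1 TPM over all livers, one row per gene with its class, in the 5 control groups (circles female, squares male). Col18a1 lies furthest to the right in every group, while the red HFCF markers of Col3a1 and Col1a1 lie near 100, to the right of their HF and LF markers.

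Reads on the other 42 collagen genes made up a larger part of the library on the HFCF diet. Their median share was 0.0434% of reads in control LF females, 0.0373% in control HF females and 0.202% in control HFCF females. Labelled-knockout females gave 0.0446%, 0.0428% and 0.164% on the same 3 diets. Control males had a median share of 0.0983% on the HF diet and 0.192% on the HFCF diet, against 0.0589% and 0.149% in labelled-knockout males. On the HF diet the 2 male genotypes did not overlap, with 0.0722 to 0.120% in controls and 0.0475 to 0.0683% in the labelled knockout. These are descriptions, since a sum over the members was not tested. In bulk tissue, fewer cells of a type and less RNA per cell cannot be told apart.

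**Figure D2:**
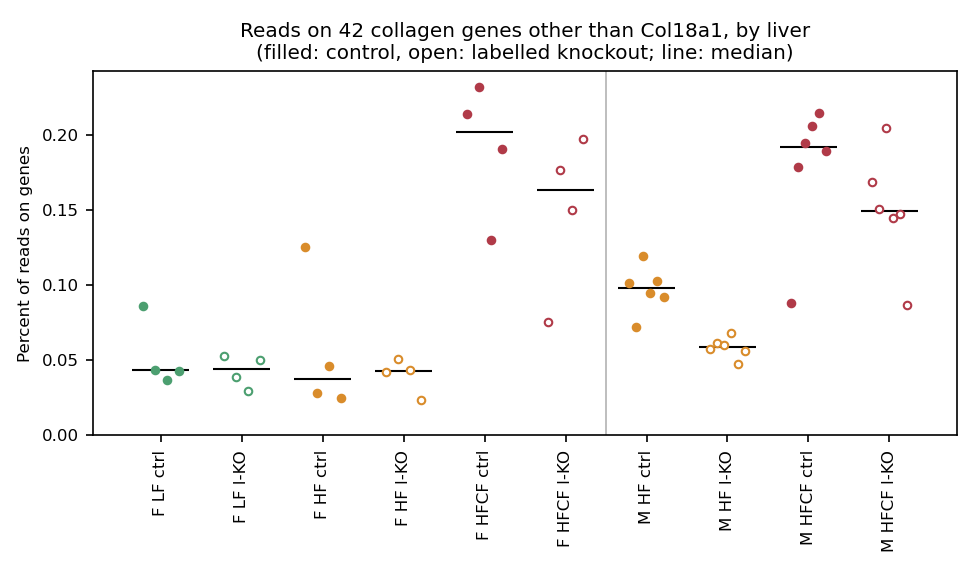
Percent of reads on genes that fell on the 42 collagen genes other than Col18a1, one point per liver, by sex, diet and genotype, with the median as a line. HFCF groups have the highest medians in both sexes, while 1 liver in 3 of those 4 groups lies at or under 0.0880% and control HF female replicate 1 stands at 0.125%, and the open HF male points lie under the filled ones.

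The first comparison asked what the labelled loss of hepatocyte Pparg did to collagen mRNA on each diet. In HF males, 5 of 9 fibrillar, 2 of 5 type IV, 3 of 3 beaded-filament and 2 of 4 FACIT genes fell, as did Col8a1. Of 25 members tested, 13 were called and all 13 were lower. Over all genes 18.5% were called in this comparison, 8.57% higher and 9.88% lower. The median log2 change of the 25 was -0.50, against 0.000204 over all genes. Without any 1 of the 12 libraries the count ran from 12 to 15, beside 2018 to 2777 of all genes.

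Among fibrillar genes 5 of 9 fell. Col1a1 (ENSMUSG00000001506, chr11:94936224-94953042), the alpha 1 chain of type I, ran from 51.7 through a median of 84.6 to 109 CPM in controls and from 19.5 through 39.8 to 46.1 in the labelled knockout. The groups did not overlap, and the log2 change was -1.23 ± 0.21 (SE, adjusted p = 0.000725, edgeR). Its partner chain Col1a2 ran from 55.7 through 83.3 to 100.3 CPM in controls and from 27.0 through 43.9 to 46.5 in the labelled knockout, a log2 change of -1.03 ± 0.17. Again no labelled-knockout liver reached the lowest control. Col3a1 (ENSMUSG00000026043, chr1:45311538-45349706), the single chain of type III, ran from 106 through 150 to 192 CPM in controls and from 52.8 through 75.8 to 84.6 in the labelled knockout, a log2 change of -1.05 ± 0.15. The type V chains Col5a2, at -0.64 ± 0.17, and Col5a1, at -0.50 ± 0.10, which help set fibril diameter, also fell. Col5a3 at -0.10, Col27a1 at -0.09, Col11a2 at 0.02 and Col24a1 at 0.50 were not called.

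Col1a2 and Col3a1 were called lower together, so RefSeq sequence upstream of their starts is shown (GRCm38.p6, plus strand, 5′ to 3′). The first is the 123 bases between an exon of an upstream isoform and the main transcript model of Col1a2, chr6:4505370-4505492, with the GC box core GGGCGG in capitals. The second is the 250 bases before the Col3a1 start, chr1:45311288-45311537, with TATAAA in capitals.
Col1a2: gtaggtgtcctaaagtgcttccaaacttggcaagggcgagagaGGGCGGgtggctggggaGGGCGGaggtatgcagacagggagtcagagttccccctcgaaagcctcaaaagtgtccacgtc
Col3a1: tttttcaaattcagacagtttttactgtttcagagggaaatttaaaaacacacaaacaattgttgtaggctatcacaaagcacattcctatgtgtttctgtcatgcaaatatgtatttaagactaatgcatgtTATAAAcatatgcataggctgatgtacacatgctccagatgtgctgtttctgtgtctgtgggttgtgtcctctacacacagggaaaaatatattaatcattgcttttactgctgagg
Col1a2 holds 2 GC box cores and no TATAAA in this stretch, and Col3a1 holds 1 TATAAA and no GGGCGG. The stretches differ in length and in distance from the start, so the genes cannot be compared by them. RefSeq windows of 250 bases before the start were matched for 35 of the 43 members (38 windows). Searched on both strands, GGGCGG was in 57.9% of these windows and in 32.7% of all 32851 windows, TATAAA in 13.2% and 12.4%, and CCAAT in 34.2% and 33.8%. These letters are a description of the windows and not binding sites. The window of Col1a2, chr6:4505368-4505617, ends downstream of the printed stretch and holds CCAAT, so the bases just before its start are not shown.

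In the basement membrane class, Col4a1 and Col4a2 fell and the other 3 tested chains were not called. Col4a1 (chr8:11198423-11312826) ran from 88.6 through 114 to 143 CPM in controls and from 46.7 through 58.3 to 63.1 in the labelled knockout. With a log2 change of -0.99 ± 0.11 (SE, adjusted p = 2.37e-05, edgeR), it had the smallest p of the family in this comparison. Col4a2 (chr8:11312805-11449287) ran from 50.4 through 65.9 to 78.0 CPM against 35 through 41.1 to 48.2, a log2 change of -0.66 ± 0.10. For both genes the highest labelled-knockout liver lay below the lowest control. The 2 genes lie head to head on opposite strands, and their models share the following 22 bases at chr8:11312805-11312826 (GRCm38.p6, plus strand), shown because both start there.
Col4a1 and Col4a2: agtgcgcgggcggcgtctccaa
The reads of Col4a1 per read of Col4a2 ran from 1.71 to 1.85 in control HF males and from 1.29 to 1.59 in the labelled knockout, with no overlap between the groups. The libraries were not stranded, and neither the ratio nor the part of reads from the shared stretch was tested. Col4a5, a chain of another type IV network, had a log2 change of -0.63 ± 0.21 and missed the threshold (adjusted p = 0.0514, edgeR).

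All 3 beaded-filament chains tested fell in HF males. Col6a3, the long chain of type VI, ran from 30.9 through 44.3 to 51.4 CPM in controls and from 18.7 through 25.5 to 38.2 in the labelled knockout, a log2 change of -0.73 ± 0.17. The groups overlapped. Col6a1 ran from 24.6 through 29.4 to 34.5 CPM against 14.9 through 20.2 to 22.5, a log2 change of -0.59 ± 0.11, and did not overlap. Col6a2 changed by -0.71 ± 0.17.

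The largest log2 change in HF males belonged to Col12a1, a FACIT chain that binds type I fibrils. It ran from 4.77 through 7.21 to 8.55 CPM in controls and from 1.25 through 2.27 to 3.04 in the labelled knockout, -1.69 ± 0.21 (SE, adjusted p = 5.26e-05, edgeR). No labelled-knockout liver reached the controls. Col8a1, a short-chain collagen of vessels, ran from 1.68 through 2.16 to 3.87 CPM against 0.402 through 1.01 to 1.69, a log2 change of -1.36 ± 0.33, with the highest labelled-knockout liver just above the lowest control. Col14a1, another FACIT chain, ran from 112 through 139 to 162 CPM against 86.2 through 96.0 to 137. Its log2 change of -0.42 ± 0.12 (adjusted p = 0.026, edgeR) passed in 6 of 12 fits when 1 library at a time was dropped. Col16a1 ran from 8.85 through 10.9 to 12.3 CPM against 7.78 through 8.56 to 10.9, and its change of -0.30 was not called. Both multiplexins, Col15a1 at -0.10 and Col18a1 at 0.13, and the transmembrane Col13a1 at -0.08, were not called either.

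Of the 25 members with a mean of at least 1 CPM, 7 had HF male groups that did not overlap, all lower in the labelled knockout. The same held for 4.37% of the genes at that level. The mean fold of these 7 ran from 1.5 for Col6a1 to 3.23 for Col12a1, given as control over labelled knockout. Markers of other cells moved beside this result. Those of hepatocytes were called higher for 4 of 5 genes, stellate cell markers lower for 3 of 8 (Reln, Pdgfrb and Hgf), and red blood cell genes higher for 3 of 5. Summed stellate cell markers ran from 270 to 379 CPM in controls and from 228 to 358 in the labelled knockout, and summed portal fibroblast markers from 19.6 to 28.3 against 11.2 to 19.8, with 2 of 6 lower. Of the myofibroblast, cholangiocyte and sinusoidal endothelium markers 1 of 5 each was lower (Timp1, Spp1 and Lyve1), and macrophage markers had 2 of 5 lower (Trem2 and Gpnmb) and 1 higher (Clec4f). Labelled-knockout replicates 3, 4 and 5 held 261 to 354 CPM of Hbb-bs, a beta globin gene, against 45.1 to 47.3 in replicates 1, 2 and 6. Without those 3 libraries 9 of 28 members were called, all 9 lower and all among the 13, beside 1977 of 14516 genes in place of 2591 of 14041. Col1a1 then changed by -1.29, Col3a1 by -1.09, Col4a1 by -0.98 and Col12a1 by -1.65. The part of the other markers in the collagen changes was not tested.

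**Figure D3:**
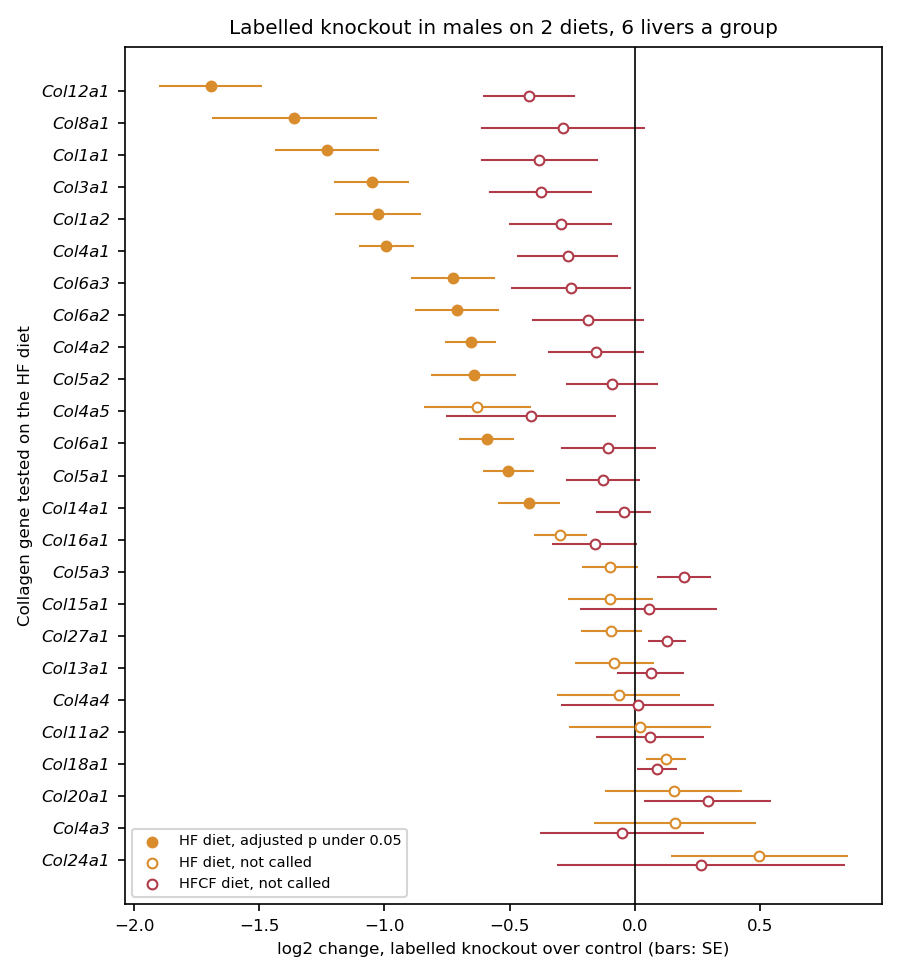
Log2 change of labelled knockout over control in males, with SE bars, for the 25 collagen genes tested on the HF diet, on the HF diet (orange) and the HFCF diet (red), 6 livers a group. The 13 filled orange points, from Col12a1 at -1.69 to Col14a1 at -0.42, passed the test, and no red point did.

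On the HFCF diet no member was called between the male genotypes. This was 0 of 32 with edgeR and 0 with DESeq2's Wald test. An unadjusted edgeR p under 0.05 was found for 1 member, beside 2085 of all 14685 genes. Over all genes 2.21% were called, 0.933% higher and 1.27% lower. The median log2 change of the 32 was -0.12. Col1a1 ran from 91.3 through 235 to 244 CPM in controls and from 86.1 through 155 to 228 in the labelled knockout, with a log2 change of -0.38. Col3a1 ran from 166 through 365 to 385 CPM against 145 through 246 to 360, at -0.38 ± 0.21 (adjusted p = 0.447, edgeR). The groups overlapped for both. Without the low control replicate 1, Col3a1 changed by -0.51 (adjusted p = 0.054, edgeR) and Col1a1 by -0.53 (adjusted p = 0.063, edgeR). No member was called in that fit either, where 7.09% of all genes were called. At an unadjusted p under 0.05 stood 8 members. Labelled-knockout replicate 6 was low as well. Its share of reads on collagen genes other than Col18a1 was 0.0869%, against 0.0880% in control replicate 1. The fit without that control keeps the low labelled-knockout liver, so it does not show a genotype difference. Over the 12 fits that each left out 1 library, no member was called, and 185 to 1052 of all genes were.

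The interaction test asked whether the genotype difference in males depended on the diet. It called 1 of 32 members, Col12a1, where 1.56% of all genes were called (0.987% higher and 0.570% lower). At an unadjusted edgeR p under 0.05 stood 7 members and 2574 of all 15096 genes. On the HFCF diet Col12a1 ran from 5.74 through 8.79 to 10.5 CPM in controls and from 4.16 through 5.68 to 8.04 in the labelled knockout. Its log2 change there was -0.42 against -1.69 on the HF diet, a difference of 1.26 ± 0.29 (SE, adjusted p = 0.0264, edgeR). The call was lost without HF control replicate 3 or without HF labelled-knockout replicate 3. With a replicate block it was lost as well (adjusted p = 0.0977, edgeR). For Col4a1 the interaction was 0.71 (adjusted p = 0.127, edgeR) and for Col1a1 0.83 (adjusted p = 0.202, edgeR). For these, and for the other members that fell on the HF diet, a difference between the diets was thus not shown.

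In females no member was called between genotypes on any diet. With edgeR these were 0 of 28 on LF, 0 of 25 on HF and 0 of 31 on HFCF, and 0 each with DESeq2's Wald test. At an unadjusted edgeR p under 0.05 stood 2, 2 and 3 members. Beside them stood 355 of 14285, 1135 of 14128 and 1340 of 14980 genes. Over all genes edgeR called 0% on LF, 0% on HF and 0.0534% on HFCF (0.00668% higher and 0.0467% lower). Control LF females had 57.2, 23.7, 16.9 and 27.4 CPM of Col1a1, and labelled-knockout LF females 33.4, 13.6, 12.4 and 25.5. On the HF diet the controls had 151, 9.97, 22.1 and 6.14 CPM and the labelled knockout 22.9, 36.2, 21.6 and 4.47. One high control stands apart there, the other controls reach 22.1 CPM, and 2 of the 4 labelled-knockout livers lie above those 3. Without that control the log2 change of Col1a1 was 0.77 (adjusted p = 0.715, edgeR) in place of -1.15, and 4 members had an unadjusted p under 0.05, with none called. HFCF controls had 271, 311, 154 and 223 CPM and labelled-knockout livers 78.0, 193, 159 and 224. Without the low labelled-knockout replicate 1 none of 32 members was called, beside 0.124% of all genes. At an unadjusted p under 0.05 stood 6 members. Col12a1 gave the smallest female p on the HF diet, with 5.72, 3.92, 3.26 and 2.6 CPM in controls against 2.36, 2.58, 1.87 and 1.47, a log2 change of -0.89 that missed the threshold (adjusted p = 0.584, edgeR). Of the 25 members with a mean of at least 1 CPM it was the only one whose HF female groups did not overlap, beside 3.87% of genes that were lower without overlap. The test of whether the HF genotype difference depended on sex called 0 of 30 members (3 at an unadjusted p under 0.05, 0 by DESeq2's Wald test) and 0% of all genes. At the unadjusted threshold stood 1590 of all 15024 genes. Without control HF female replicate 1 that interaction called 5 members (Col6a1, Col1a2, Col3a1, Col4a2 and Col5a2), each with a more negative change in males, and 1.88% of all genes. The female test of genotype by diet called 0 of 32 (1 at an unadjusted p under 0.05, 0 by DESeq2's Wald test) and 0% of all genes. Its count at the unadjusted threshold was 667 of all 15445 genes. Without control HF replicate 1 it called 0 of 32 as well, with 6 at an unadjusted p under 0.05, and the interaction of Col1a1 turned from 0.62 to -1.30 and that of Col3a1 from 0.40 to -0.93.

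The second group of comparisons asked how diet moved collagen mRNA. Against the HF diet, some but not all fibrillar and type IV genes, some or all tested type VI genes, and Col8a1, were higher on the HFCF diet in both sexes and genotypes. In control males 20 of 29 members were called, 17 higher and 3 lower, beside 22.3% of all genes (13% higher and 9.31% lower). Labelled-knockout males had 20 of 30, 18 higher and 2 lower, beside 41.7% (21.6% and 20%). For control females it was 18 of 31, 15 higher and 3 lower, beside 30.8% (16.9% and 13.8%). In labelled-knockout females 17 of 29 were called, 16 higher and 1 lower, beside 14.5% (8.44% and 6.01%). By class, fibrillar genes were higher for 5 of 9 in control males (with 1 lower), 5 of 9 in labelled-knockout males, 3 of 9 in control females and 5 of 9 in labelled-knockout females. Type IV genes were higher for 5, 5, 4 and 3 of 6 in that order, and beaded-filament genes for 3 of 4, 3 of 4, 2 of 4 and 3 of 3. Median log2 changes of the tested members were 0.67, 0.99, 1.26 and 1.20 in that order, and those of all genes lay between -0.02 and 0.01. Without control HFCF male replicate 1 the control male count was 25 of 31, 22 higher and 3 lower, beside 37% of all genes. Without HFCF replicate 1 the labelled-knockout female count was 22 of 31, 20 higher and 2 lower, beside 29.1%. These 4 comparisons share no library. Of 28 members tested in all 4, 10 were called higher in each (Col3a1, Col5a1, Col5a2, Col4a1, Col4a2, Col6a1, Col6a3, Col8a1, Col15a1 and Col16a1), as were 4.14% of all genes tested in all 4.

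Among the fibrillar genes, Col3a1 gave the smallest p of the family in both male comparisons. In control males it went from a median of 150 CPM on HF to 365 on HFCF, a log2 change of 1.20 ± 0.19 (SE, adjusted p = 0.00134, edgeR). The groups overlapped through the low HFCF replicate 1 at 166 CPM. In labelled-knockout males the ranges, 52.8 to 84.6 and 145 to 360 CPM, did not overlap, and the log2 change was 1.86 ± 0.18 (adjusted p = 3.21e-06, edgeR). Col1a1 rose by 1.36 ± 0.23 in control and 2.18 ± 0.22 in labelled-knockout males. In labelled-knockout females Col3a1 had 46.3, 74.2, 40.8 and 21.0 CPM on HF and 184, 338, 289 and 354 on HFCF. Every HFCF liver exceeded every HF liver, and the mean was 6.39-fold higher. Control females had 210, 22.4, 47.0 and 21.0 CPM of Col3a1 on HF and 428, 431, 260 and 354 on HFCF, with a log2 change of 2.30 ± 0.69 (adjusted p = 0.0331, edgeR). Col1a1 in control females changed by 2.34 ± 0.87 and missed the threshold (adjusted p = 0.0668, edgeR), although its groups did not overlap.

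Control HF female replicate 1 weighed on that last comparison. Without it 25 of 31 members were called, 22 higher and 3 lower, beside 43.6% of all genes. Col1a1 was then called, with a log2 change of 4.25, and Col3a1 moved to 3.63. Leaving out 1 of the other 7 libraries instead gave 5 to 17 called members. Over all 8 fits 2454 to 6530 of all genes were called, in place of 4526 with every library. The member counts were 6, 6 and 7 without HF replicate 2, 3 or 4, and 7, 5 and 5 without HFCF replicate 1, 2 or 5. Calls on Col8a1, Col4a2, Col4a4 and Col15a1 were kept in all 8 of these fits.

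In the basement membrane class, Col4a1 and Col4a2 were called higher in each of the 4 comparisons. Median Col4a1 in control males was 114 CPM on HF and 172 on HFCF, a log2 change of 0.61 ± 0.17, with overlapping groups. Control females had 128, 25.8, 47.5 and 23.7 CPM on HF and 227, 195, 142 and 217 on HFCF, a log2 change of 1.81 ± 0.49. Control-female Col4a2 had 64.3, 17.4, 24.5 and 16.1 CPM against 127, 122, 82.9 and 120, a log2 change of 1.89 ± 0.41 and no overlap. Col4a4, Col4a5 and Col4a6, chains of the networks of kidney and smooth muscle, lay far lower in liver. Col4a6 rose by 2.23 ± 0.28 in labelled-knockout males and 1.27 ± 0.38 in control males, Col4a5 by 1.39 ± 0.27 and 1.19 ± 0.31, and Col4a4 by 1.30 ± 0.30 and 1.24 ± 0.26. Col4a3 was called in none of the 4 comparisons. Without control HFCF male replicate 1 it rose by 1.11 in control males and was called (adjusted p = 0.00999, edgeR).

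Col8a1 had the smallest p of the family in both female comparisons of HFCF with HF. Controls had 2.08, 0.374, 0.501 and 0.620 CPM on HF and 6.23, 5.34, 3.51 and 5.39 on HFCF, a log2 change of 2.51 ± 0.47 (SE, adjusted p = 0.00747, edgeR). The labelled knockout had 0.644, 0.463, 0.433 and 0.280 CPM against 3.05, 3.63, 5.0 and 5.38, a log2 change of 3.20 ± 0.33 (adjusted p = 0.00126, edgeR). Groups did not overlap in either genotype. Control males ran from 1.68 through 2.16 to 3.87 CPM on HF and from 1.59 through 5.02 to 7.53 on HFCF, and the log2 change of 0.99 ± 0.30 was called, though it passed in 5 of 12 fits when 1 library was dropped. The related Col8a2, between 0.0575 and 1.40 CPM over all livers, was not called in any comparison with all libraries. Without control LF female replicate 1 it was called higher on HFCF against LF in control females, at 1.34 (adjusted p = 0.0328, edgeR).

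Among the type VI chains, Col6a1 and Col6a3 rose in each of the 4 comparisons. Col6a3 in control females had 80.6, 13.9, 18.9 and 10.6 CPM on HF and 149, 144, 74.0 and 109 on HFCF, a log2 change of 1.95 ± 0.59. The groups overlapped because of HF replicate 1. Control males ran from 30.9 through 44.3 to 51.4 CPM on HF and from 40.0 through 97.4 to 128 on HFCF, and the change was 1.11 ± 0.21. Col6a1 had 44.9, 12.6, 16.4 and 11.2 CPM against 55.0, 69.3, 33.9 and 44.5 in control females, and changed by 1.26 ± 0.43 there and by 0.62 ± 0.16 in control males. Reads of Col6a3 per read of Col6a1 had a median of 1.42 (1.26 to 1.80) in control HF males and 2.07 (1.70 to 2.29) in control HFCF males, with overlapping ranges. Col6a2 was called higher in 3 of the 4 comparisons and missed the threshold in control females (adjusted p = 0.0569, edgeR). The low Col6a6 was not called in any comparison with all libraries. Col6a5, which among the pairwise comparisons passed the filter in the genotype comparison of HFCF males, was called neither there nor in an interaction. Without control HFCF male replicate 1, both were called higher on HFCF against HF in control males. Col6a6 then rose by 1.10 (adjusted p = 0.00864, edgeR) and Col6a5 by 1.24 (adjusted p = 0.0327, edgeR).

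FACIT and multiplexin genes split. Col15a1, a multiplexin of vessel basement membranes, rose by 1.37 ± 0.25 in control males, from 10.7 through 15.1 to 19.9 CPM to 13.9 through 42.4 to 54.5. In control females it went from 38.8, 13.5, 18.7 and 14.4 CPM to 73.1, 52.7, 39.9 and 59.7, with no overlap and a log2 change of 1.41 ± 0.33. Col14a1 was called in 3 of the 4, and in control females went from 136, 39.4, 85.5 and 52.6 CPM to 183, 180, 153 and 167, a log2 change of 1.14 ± 0.33. In control males it was 0.28 and not called, but without the low HFCF replicate 1 it was 0.36 and called (adjusted p = 0.00605, edgeR). Col16a1 rose in each of the 4, in control females from 13.8, 3.86, 6.83 and 3.29 CPM to 18.1, 18.8, 13.6 and 19.3, and in control males from a median of 10.9 to 16.4. Col12a1 rose in both female comparisons, by 1.08 ± 0.27 and 1.37 ± 0.23, and in labelled-knockout males by 1.5 ± 0.23.

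Col18a1 moved the other way. Control females had 1524, 1504, 1297 and 1706 CPM on HF and 1148, 1156, 1188 and 1050 on HFCF, a log2 change of -0.39 ± 0.11 with no overlap. In control males it ran from 1155 through 1396 to 1474 CPM on HF and from 928 through 1068 to 1277 on HFCF, and fell by 0.32 on the log2 scale. Labelled-knockout males fell by 0.37 with no overlap, and labelled-knockout females changed by -0.40 without a call (adjusted p = 0.071, edgeR). Hepatocyte markers were lower in 3 of the same 4 comparisons: 3 of 5 in control males, 5 of 5 in labelled-knockout males and 5 of 5 in control females. In labelled-knockout females 0 of 5 were called. The part of the hepatocyte share in the Col18a1 change was not tested. Col13a1, a transmembrane collagen, fell in both male comparisons and in control females, where it had 3.76, 4.17, 5.76 and 7.13 CPM on HF and 2.04, 2.87, 3.56 and 3.36 on HFCF. Col27a1 fell in control males by 0.42 on the log2 scale. Col20a1 fell in both female comparisons, but its reads cannot be told apart from those of the overlapping 9230112E08Rik in unstranded libraries, so its change is uncertain.

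**Figure D4:**
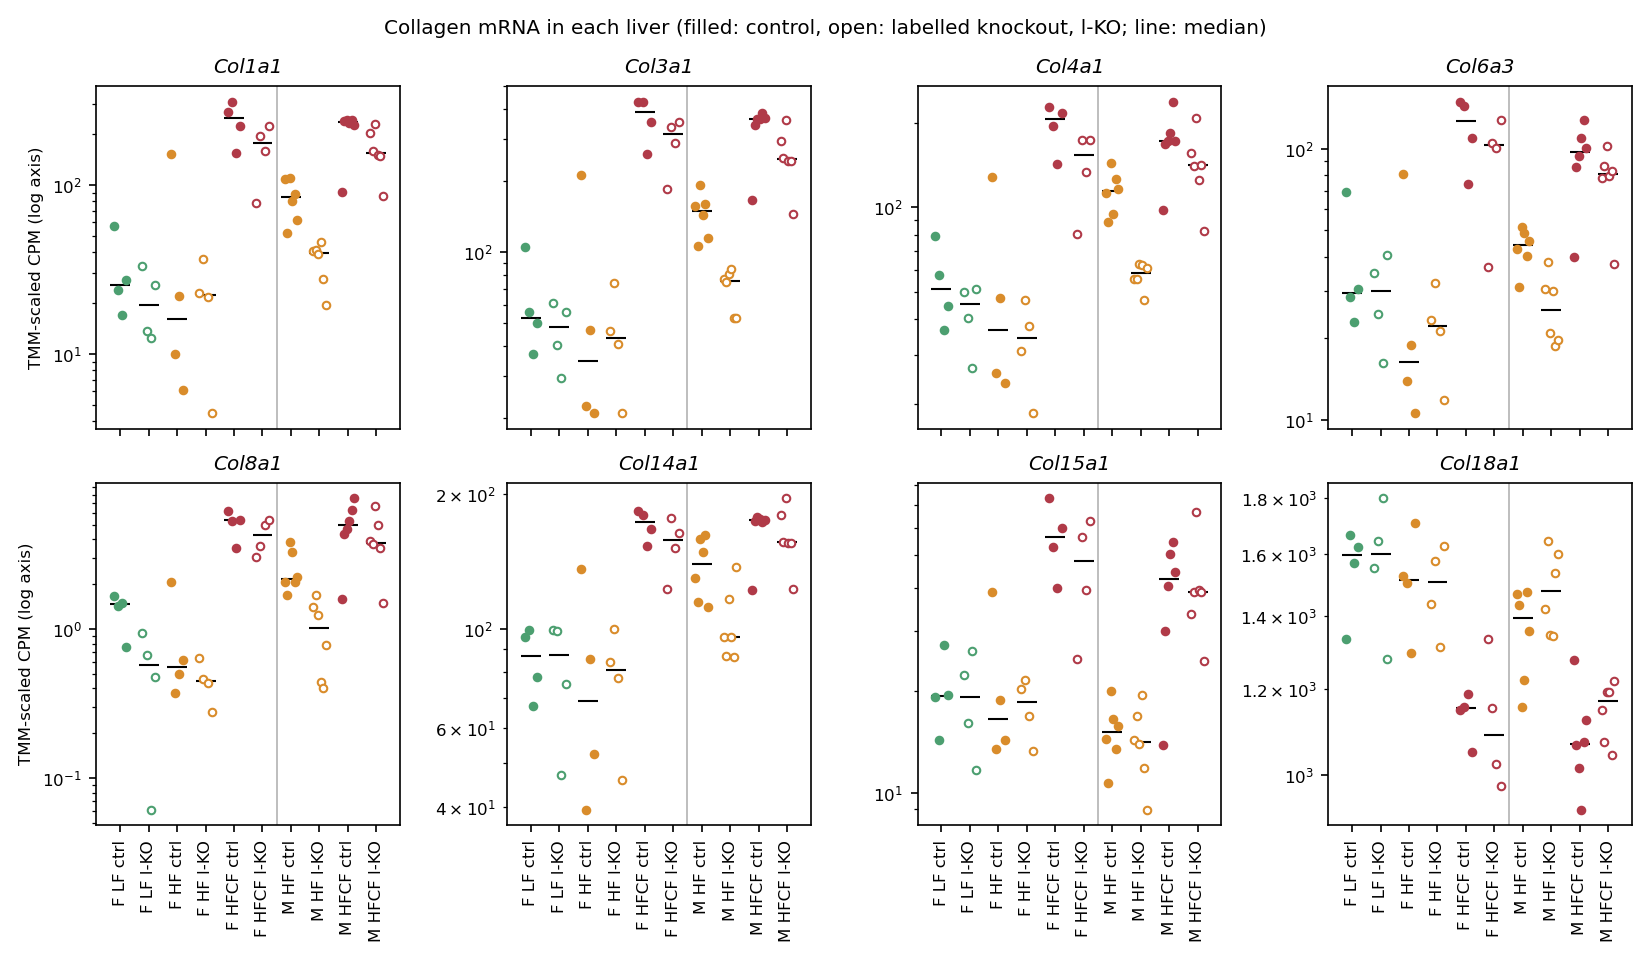
TMM-scaled CPM (log axis, its own range in each panel) of 8 collagen genes in every liver, filled for control and open for labelled knockout, with the group median as a line and females left of the grey line. Col1a1, Col3a1, Col4a1, Col6a3, Col8a1, Col14a1 and Col15a1 have their highest medians on HFCF in each sex, and Col18a1 its lowest.

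Against the LF diet, available in females, the HFCF diet gave a like picture; these comparisons reuse the HFCF libraries above. Controls had 20 of 31 members called, 17 higher and 3 lower, beside 35.2% of all genes (18.4% higher and 16.8% lower). The labelled knockout had 16 of 29, 15 higher and 1 lower, beside 12% (8.26% and 3.74%). Col5a1 gave the smallest p in controls, with 23.3, 24.8, 20.5 and 24.3 CPM on LF and 54.1, 58.8, 40.7 and 52.3 on HFCF, a log2 change of 1.13 ± 0.12 (SE, adjusted p = 0.000338, edgeR) and no overlap. Col3a1 gave the smallest in the labelled knockout, with 61.0, 40.5, 29.3 and 56.1 CPM against 184, 338, 289 and 354, a log2 change of 2.67 ± 0.27 (adjusted p = 0.000938, edgeR). Col1a1 rose by 2.90 ± 0.37 in controls and 2.98 ± 0.38 in the labelled knockout. Col5a2 was called in the labelled knockout at 2.16 ± 0.28. It was not called in controls, where LF replicate 1 held 175 CPM, and without that library it changed by 2.20 and was called. Leaving out that library took the control count to 26, 23 higher and 3 lower, beside 37.9% of all genes. In the labelled knockout the count was 22, 19 higher and 3 lower, without HFCF replicate 1, beside 23.8% of all genes, and 11 without LF replicate 2. Over the 8 fits without 1 library, 681 to 3587 of all genes were called there.

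No member was called between the HF and LF diets with edgeR. In control females this was 0 of 26, where DESeq2's Wald test called 1, beside 0.696% of all genes by edgeR (0.443% higher and 0.253% lower). At an unadjusted edgeR p under 0.05 stood 2 members and 2314 of all 14216 genes. Without control HF replicate 1 there were still 0 called of 27, beside 0.777% of all genes called. At an unadjusted p under 0.05 stood 15 members, a looser threshold than that of the 0.777%. In labelled-knockout females it was 0 of 27, where DESeq2's Wald test called 0, beside 0.155% of all genes by edgeR (0.0704% higher and 0.0844% lower). At an unadjusted edgeR p under 0.05 stood 2 members and 1902 of all 14214 genes. Col3a1 in control LF females stood at 105, 55.6, 37.3 and 50.2 CPM, against 210, 22.4, 47.0 and 21.0 on HF. Apart from the high HF replicate 1, the HF livers lay below 3 of the 4 LF livers, and without it Col3a1 changed by -1.06 (adjusted p = 0.2, edgeR). Col27a1 came nearest, with 23.4, 22.1, 25.8 and 36.9 CPM on LF and 90.8, 67.0, 82.8 and 32.1 on HF, a log2 change of 1.33 ± 0.29 that missed the threshold (adjusted p = 0.0728, edgeR).

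Whether the HFCF response differed between the sexes was tested in controls. No member of 32 was called with edgeR, DESeq2's Wald test called 0, and edgeR called 0.00646% of all genes. At an unadjusted edgeR p under 0.05 stood 7 members and 2561 of all 15491 genes. The median interaction of the members was -0.63, a smaller rise in males. The lack of calls rested on control HF female replicate 1. Without it 15 members were called, all with the smaller rise in males, beside 10.8% of all genes, with Col4a2 at -1.88 and Col3a1 at -2.42. On the HF diet control males had a median of 84.6 CPM of Col1a1, control female replicate 1 had 151, and the 3 other control females 6.14 to 22.1. A difference in level between the sexes was not tested.

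**Figure D5:**
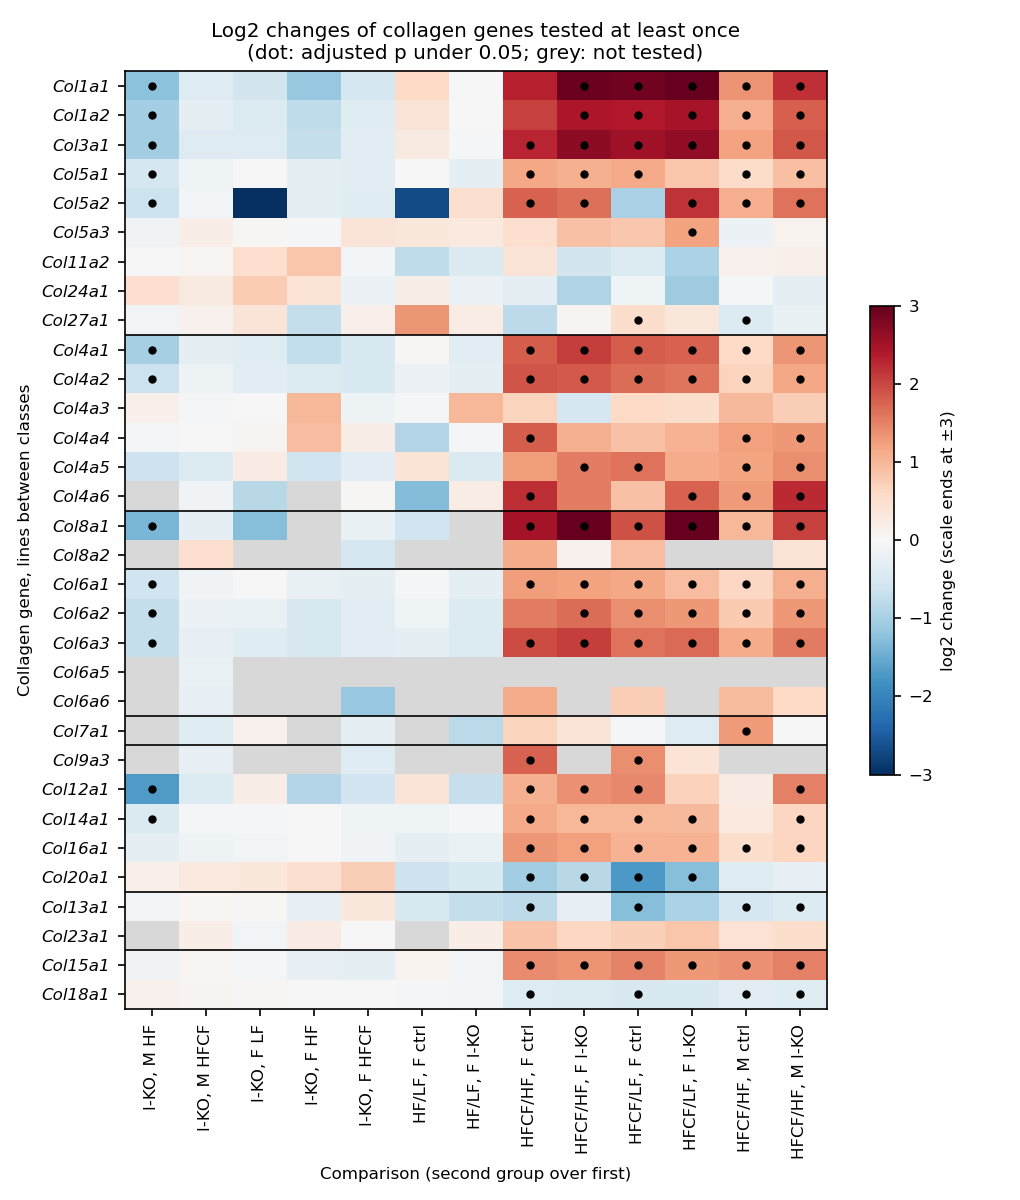
Log2 change of each of the 32 collagen genes tested at least once (rows, by class) in the 13 pairwise comparisons (columns), red for higher and blue for lower in the group named first, dots for an adjusted p under 0.05 and grey for not tested. Dots lie in the columns of HFCF against HF or LF and in the genotype column of HF males. They are absent from the other genotype columns and from HF against LF. The labels shorten labelled knockout to l-KO, and the dark blue Col5a2 cells rest on control LF female replicate 1.

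Members near the limit of detection add little. Col7a1, the anchoring fibril chain, ran from 0.119 through 0.224 to 0.689 CPM in control HF males and from 0.305 through 0.772 to 1.34 in control HFCF males, and was called higher in that comparison alone, at 1.28 ± 0.42. It passed in 4 of 12 fits when 1 library at a time was dropped. Col9a3, a FACIT chain known from cartilage, was called higher on HFCF in control females, at 1.76 ± 0.49 against HF and 1.40 ± 0.42 against LF. Col23a1, a transmembrane chain, ran from 0.130 to 1.45 CPM in the male livers and was called nowhere. Col28a1 ran from 0 to 0.83 CPM and was never tested. The 11 members too low for every pairwise test were Col2a1, Col6a4, Col9a1, Col9a2, Col10a1, Col11a1, Col17a1, Col19a1, Col22a1, Col25a1 and Col28a1.

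Genes that act on collagen were counted in 4 lists. In HF males labelled knockout, fibril-associated proteoglycans and glycoproteins were called lower for 6 of 12 and higher for none. They included Thbs1 at -1.12, the small leucine-rich proteoglycan Lum at -0.72 and the collagen-binding Sparc at -0.52, and the list's median was -0.40. Of the 10 tested processing and cross-linking genes 3 fell, among them the lysyl oxidases Loxl1 at -0.82 and Loxl2 at -0.69, and 2 rose, Bmp1 at 0.27 and Pcolce2 at 1.09. Folding and modification genes gave 3 lower (Colgalt1, Fkbp10 and P3h3) and 1 higher (Ppib) of 17, near the 18.5% called over all genes. The receptor list gave Ddr1, a collagen-binding kinase, lower and Itga10 higher of 8, also near that share. No gene of the 4 lists was called in the other 4 genotype comparisons, in HF against LF or in the interactions.

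On the HFCF diet genes of all 4 lists were called, mostly higher. Over all genes, 13% were higher and 9.31% lower in control males, 21.6% and 20% in labelled-knockout males, 16.9% and 13.8% in control females, and 8.44% and 6.01% in labelled-knockout females. Of the folding list, control males had 6 of 18 higher and 0 lower, labelled-knockout males 8 higher and 4 lower of 17, control females 9 and 2 of 17, and labelled-knockout females 5 and 1 of 18, all against HF. Serpinh1, the collagen chaperone HSP47, rose in each, by 0.85, 0.73, 1.63 and 1.70 in that order, and the hydroxylase-complex gene Crtap by 0.87, 0.79, 1.11 and 1.04. The processing and cross-linking list had 7, 6, 7 and 4 of 10 higher and 1 lower in each. Its Loxl1 rose by 1.05, 1.57, 1.80 and 2.03 while the propeptide protease Bmp1 fell by 0.29, 0.37, 0.65 and 0.48 on the log2 scale. Of the 12 proteoglycan and glycoprotein genes 9, 10, 8 and 8 rose and 1, 1, 0 and 1 fell, with Sparc at 0.74, 0.98, 1.54 and 1.63. The receptor list had 7, 7, 8 and 5 higher and none lower, with Ddr1 at 1.52, 1.93, 2.14 and 2.0. Against LF, 2721 of all 14755 genes tested were higher and 2478 lower in control females. In the labelled knockout 1207 of 14614 were higher and 547 lower. Beside these, the folding list gave 8 higher and 2 lower in controls and 6 and 0 in the labelled knockout, and the receptor list 7 and 3 higher. Processing genes gave 6 higher and 1 lower in controls and 5 and 1 in the labelled knockout, and proteoglycans 9 and 8 higher with none lower.

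Markers of other cells moved with diet as well. In each of the 4 comparisons of HFCF with HF, cholangiocyte markers were higher for 5 of 5 genes and macrophage markers for 3 to 4 of 5. Summed cholangiocyte markers had a median of 154 CPM in control HF males and 509 in control HFCF males. Stellate cell markers were higher for 2 of 8 in control males (with 1 lower), 5 in labelled-knockout males, 3 in control females and 4 in labelled-knockout females, myofibroblast markers for 3, 4, 2 and 2 of 5, and portal fibroblast markers for 3, 5, 4 and 4 of 6. Red blood cell genes were lower for 5 of 5 in labelled-knockout males. Mesothelium gave 0 to 2 calls and sinusoidal endothelium 0 to 3. No adipocyte, exocrine pancreas or skeletal muscle marker passed the filter, and the summed adipocyte list reached at most 0.223 CPM. The part of the cell make-up in the collagen changes was not tested.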

How the data were processed

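Whole-liver RNA was extracted with Trizol and sequenced from libraries that did not keep strand, per the labels' protocols. STAR 2.6.1, HTSeq 0.6.1 and DESeq2 are named with GRCm38 and mm10 per the submitters' processing notes. The deposited counts are raw whole reads per gene, per the file headers, in 11 tables of comparisons, and the gene length in bases stands beside them in the deposited tables. Tables were joined by gene identifier. Of 1341082 counts repeated between tables, 0 differed, and 0 columns of counts lacked a sample.

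For the 13 pairwise comparisons, edgeR 4.0.16 (R 4.3.3) was run on the 2 groups concerned, with TMM factors, filterByExpr and the quasi-likelihood test. The 4 interactions used their 4 groups. Benjamini-Hochberg adjustment ran over all genes tested in each comparison. The fit was tested on simulated data. TPM came from the counts and the deposited gene length. Alternatives were DESeq2 1.42.0 size factors or Wald test, no filter, all groups of a sex in one fit, a replicate block and each library left out. Promoter sequences are from RefSeq on GRCm38.p6.

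The members and lists were chosen with earlier results of these data known. Values by library are given for the 2 members with the highest mean TPM of each class and, in each comparison with calls, for the one with the smallest p. In each list up to 3 called genes were named by p, with a few others chosen after their values were seen. Marker lists covered hepatocytes, stellate cells, myofibroblasts, portal fibroblasts, cholangiocytes, sinusoidal endothelium, macrophages, mesothelium, adipocytes, exocrine pancreas, red blood cells and skeletal muscle.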

Additional observations from a re-analysis of the deposited data

Results flagged for a closer look

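Among 250 sets of 1 member in 1 group, 27 had 1 liver far from the rest of its group. Chance alone gives about 1 in 20 such sets, and genes of one liver are not independent of each other. Control HF female replicate 1 was high in 8: Col1a1 at 151 CPM, Col1a2 at 124, Col3a1 at 210, Col4a5 at 10.7, Col6a1 at 44.9, Col6a2 at 34.3, Col6a3 at 80.6 and Col8a1 at 2.08. Control HFCF male replicate 1 was low in 5: Col14a1 at 122 CPM, Col1a1 at 91.3, Col1a2 at 84.2, Col3a1 at 166 and Col5a1 at 31.4. Control LF female replicate 1 was high in Col4a2 at 52.5 CPM, Col6a3 at 69.2 and Col5a2 at 175. HFCF female labelled-knockout replicate 1 was low in Col4a3 at 0.580 CPM and Col4a6 at 0.653.

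The other 9 were single values. Col13a1 was 2.76 CPM in control HF male replicate 4 and 5.54 in HF male labelled-knockout replicate 2. Col15a1 was 66.6 in HFCF male labelled-knockout replicate 3, and Col20a1 2.05 in control HFCF male replicate 3. Col27a1 was 27.5 in HF female labelled-knockout replicate 4, and Col4a2 82.9 in control HFCF female replicate 3. Col4a3 was 1.30 in HF male labelled-knockout replicate 6 and 6.01 in HF female labelled-knockout replicate 3, and Col5a1 was 25.0 in HF female labelled-knockout replicate 2. In males the genotype difference of Col12a1 differed between the diets by 1.26 on the log2 scale, by the interaction test.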

How the results depend on the processing

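No called log2 change of a member reversed under any alternative. Calls were kept in 125 of 125 cases with DESeq2 size factors, 124 of 125 with DESeq2's Wald test, 122 of 125 without the filter, 116 of 124 with all groups of a sex in one fit, and 1082 of 1228 with 1 library left out. Replicate numbers did not pair the livers: in no comparison did every same-numbered pair deviate together. With a replicate block 99 of 125 calls were kept, and the counts of called members were 0 for HFCF against HF in control females and 0 for genotype by diet in males. Of all genes that fit called 0 in place of 4526 in these females and 71 in place of 235 in males. The 2 female groups share 3 replicate numbers, so the female 0 says nothing about collagens in particular. HF against LF in control females gave 1 called member without the filter, 1 with the Wald test and 1 with all groups of the sex in one fit. With each library left out in turn, called members ran from 5 to 25 for HFCF against HF in control females, 0 to 1 for HF against LF in control females, 0 to 1 for genotype by diet in males, 0 to 5 for genotype by sex on HF and 0 to 15 for diet by sex. Over all genes the calls ran, in that order, from 2454 to 6530, 10 to 112, 119 to 412, 0 to 287 and 0 to 1699. The cause was not tested. Leaving out 3 HF male labelled-knockout livers high in globin, chosen after seeing the data, gave 9 members in place of 13. With 4 livers a group, a p that misses the threshold does not show that levels are alike, and members below about 1 CPM rest on few reads.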
